A study of Mus musculus with 19 samples.

Results

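The comparison asks what separates CD105+ from CD105- cells within the Thy-6C3- population of neonatal mouse limb, the population in which the sort places skeletal stem cells and their first progeny. It rests on 6 of the 19 arrays of the series, 3 of Thy-6C3-CD105+ cells and 3 of Thy-6C3-CD105- cells, chosen by the population given in the labels. Every difference below is CD105+ minus CD105- on the log2 scale, so that 1 is a 2-fold change. Cells were taken at postnatal day 3 from the forelimbs and hindlimbs of a pooled litter. The genotype is given as wild-type, and the protocol calls the mice GFP-labelled without giving the allele. Both populations had passed the same gates, negative for CD45, Ter119 and Tie2 and positive for integrin alpha V. Both were sorted as negative for Thy and 6C3, and CD105 alone was sorted differently. CD200 was stained as well but is no part of the population names. The RNA was amplified in 2 rounds before hybridization to a whole-genome Affymetrix mouse array. Nothing in the labels says whether the 3 arrays of a population came from separate litters, so p-values measure the spread between these arrays, which may be technical.

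CD105, or endoglin, is a membrane glycoprotein encoded by Eng that assists the type I and type II receptors of the TGF-beta and BMP family, and it is best known from blood vessel endothelium. In the skeleton the protein is used to order progenitors. Cells of this gate without CD105 include the skeletal stem cell and its early descendants, and those that have gained CD105 are placed further along, as progenitors of bone, cartilage and stroma. The CD105 protein therefore marks a step between neighbouring progenitors, and Eng is the gene by which the sort can be checked.

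A single gene of 18193 passed the test in the step. Ednrb, the endothelin receptor type B of neural crest derivatives and vessel walls, fell by 2.03 in CD105+ cells (SE 0.26, adjusted p = 0.00734, limma with Benjamini-Hochberg adjustment, two-sided). That is 0.0055% of the genes tested, with 0 genes higher. At an unadjusted p under 0.05 there were 318 genes, or 1.75%. The median difference of all genes was 0.03 and the median SE 0.23. The difference was positive in 56% of genes. The test takes its estimate of the spread from all 18 neonatal arrays. With the 6 arrays alone 0 genes passed, and Ednrb had an adjusted p of 0.323.

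The arrays of both populations were closely alike. Over all genes the 9 pairs of arrays from different populations correlated at 0.965 to 0.995 and the 6 pairs within a population at 0.976 to 0.986. The closest pair was that of the arrays numbered 2, CD105- and CD105+, with 30 genes 2-fold or more apart (0.165%), and next came those numbered 1, with 45 (0.247%). The most distant pair was that of the arrays numbered 3, with 1589 genes (8.73%). Within a population 267 to 918 genes were 2-fold apart (1.47% to 5.05%). CD105- replicate 3 and CD105+ replicate 3 were the arrays farthest from the others. Poly-A and hybridization controls and the 3′ to 5′ differences of Gapdh and Actb overlapped between the groups. Within the step CD105- replicate 3 had the lowest poly-A level (3.94, next 4.77) and the lowest Gapdh difference (1.52, next 1.89). Its Actb difference was the highest (1.47).

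**Figure D1:**
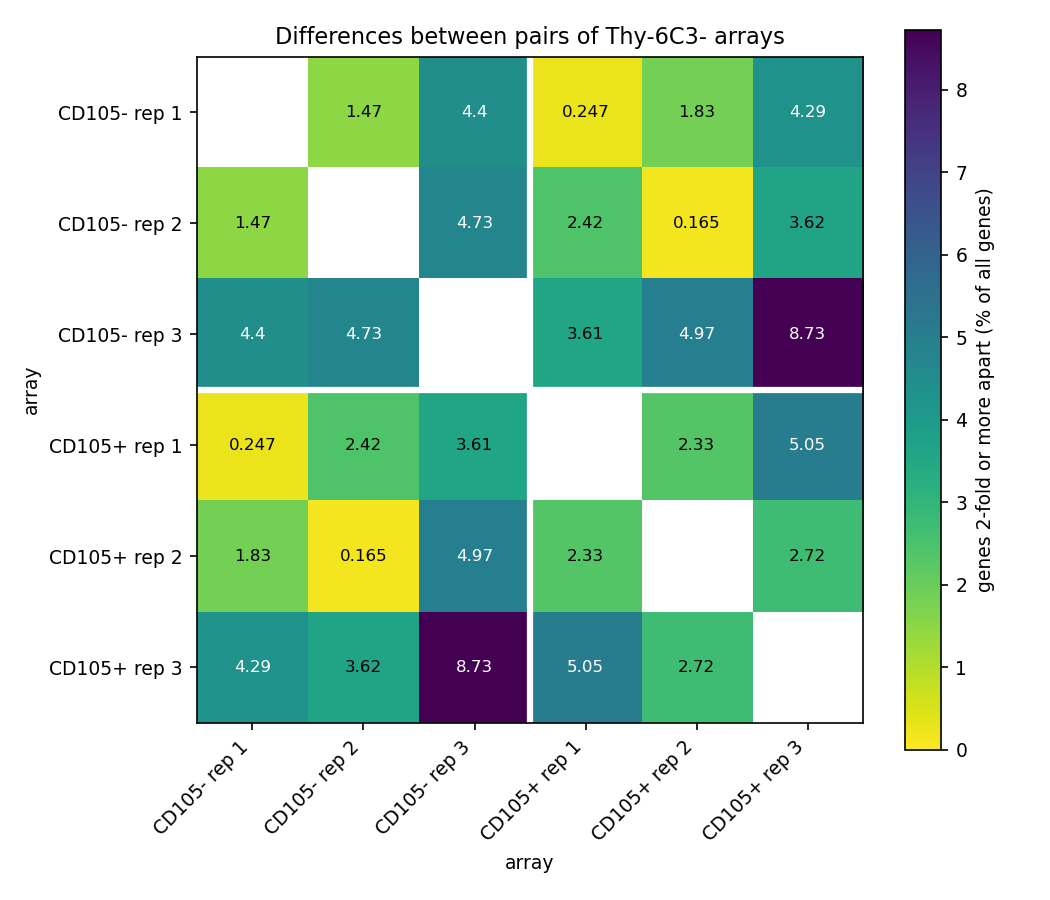
Percent of 18193 genes that were 2-fold or more apart in each pair of the 6 Thy-6C3- arrays, with white lines between the populations. The pairs of equal number 1 and 2 across the populations have 0.247% and 0.165%, fewer than any pair within a population, and the pair numbered 3 has 8.73%.

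Eng followed the sort. On the probe set that stands for the gene, the CD105- arrays read 7.28, 7.35 and 6.95 and the CD105+ arrays 8.39, 8.83 and 8.70. The groups did not overlap, and the difference was 1.45 (SE 0.30). After adjustment over all genes by limma it did not pass (adjusted p = 1).

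A second Eng probe set separated the groups further. It read 5.91, 5.82 and 5.84 in CD105- and 7.78, 7.87 and 7.47 in CD105+ cells, a difference of 1.85 (SE 0.23). In a limma fit of all 45037 probe sets other than controls, 3 passed (0.00666%), and this was among them (adjusted p = 0.0102), beside 1 of Ednrb and 1 of Mbp. Over the 6 populations the second probe set read 7.47 to 8.41 on the 9 CD105+ arrays and 5.31 to 6.19 on the 9 CD105- arrays, with no overlap. The probe set that stands for the gene overlapped over the same arrays, at 8.17 to 8.83 against 6.65 to 8.58, because Thy+6C3-CD105- replicate 3 read 8.58 there; no array of the step compared here was out of place on either.

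The other antigens of the sort did not separate the groups. Cd200, which encodes the stained antigen CD200, read 9.09, 8.67 and 8.49 against 9.29, 9.06 and 9.18. Thy1 read 4.96 to 5.91 over the 6 arrays, Enpep, the gene of 6C3, 6.86 to 8.44 and Itgav, the integrin alpha V gene, 10.37 to 11.25, all with overlap. The genes of the excluded antigens overlapped as well. Tek, the gene of Tie2, stayed between 4.69 and 5.01 and Ptprc, the gene of CD45, between 3.86 and 4.91.

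**Figure D2:**
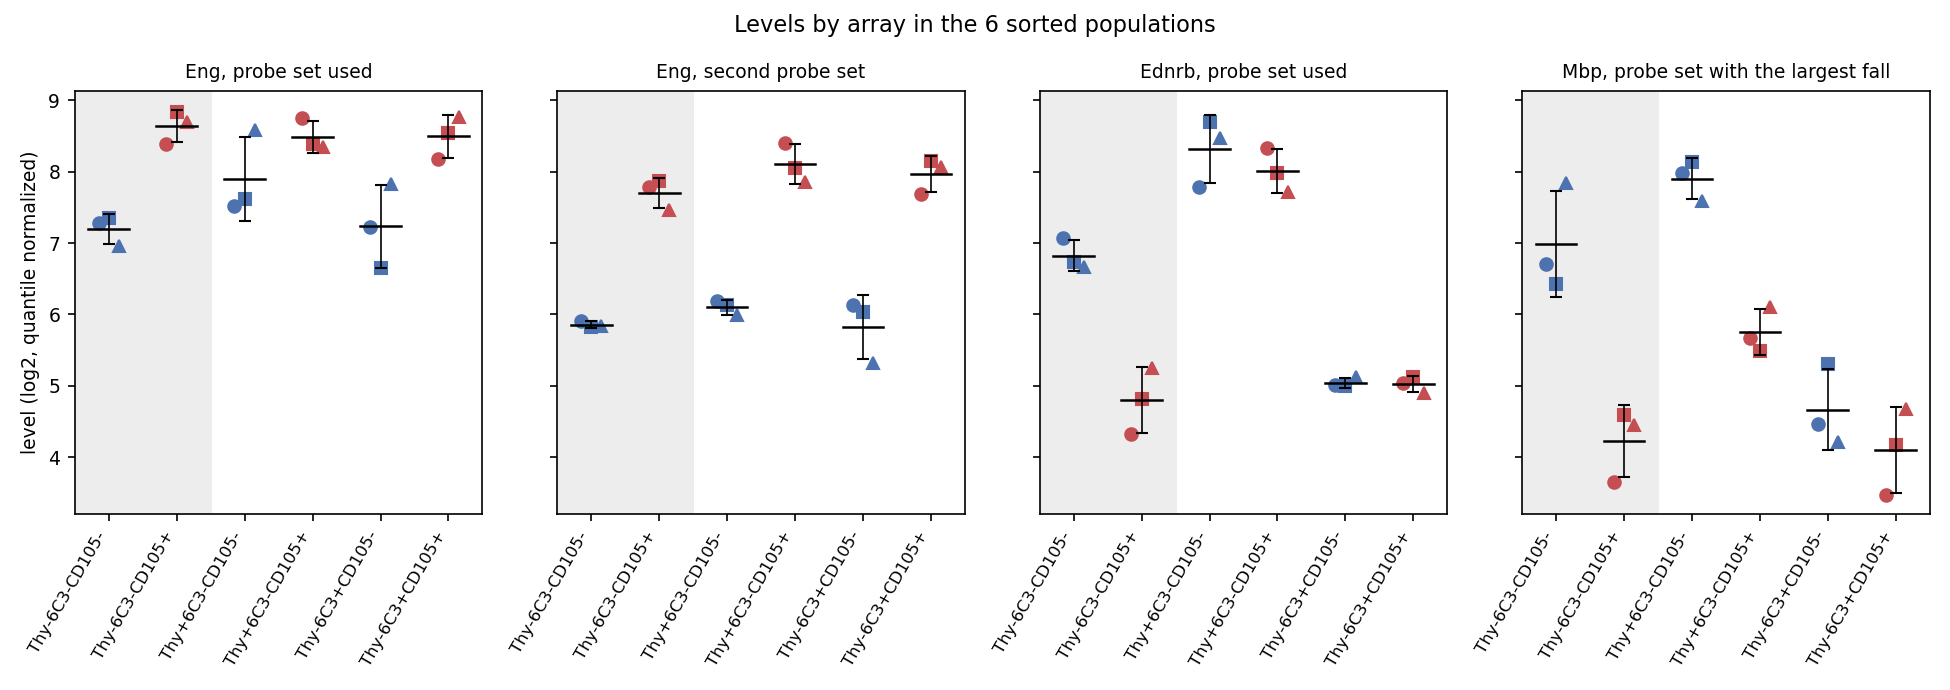
Levels (log2, quantile normalized) of 4 probe sets on the 18 neonatal arrays, by population; circles, squares and triangles are replicates 1, 2 and 3, blue is CD105-, red is CD105+, and lines and bars are the mean and SD of 3 arrays, with the step compared here shaded. Both Eng probe sets were higher in the shaded CD105+ arrays, and Ednrb and the Mbp probe set were lower there; Ednrb was high in both Thy+6C3- populations.

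Ednrb (chr14:103814615-103844508 in GRCm38.p6) read 7.08, 6.73 and 6.67 in CD105- and 4.33, 4.81 and 5.25 in CD105+ cells. The lowest CD105- array stood above the highest CD105+ array by more than the range of either group. Of the other Ednrb probe sets 1 was lower without overlap, at 5.53, 5.58 and 5.43 against 5.18, 5.19 and 5.21, and 1 overlapped, with a difference of 0.02. With the mean of its probe sets the Ednrb difference was -0.78 and the gene did not pass (adjusted p = 0.137, limma). The call was also lost without CD105- replicate 1 (-1.90, adjusted p = 0.113, limma) and without CD105+ replicate 2 (-2.04, adjusted p = 0.0697, limma). In a bulk population fewer cells with a transcript and less transcript per cell cannot be told apart.

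The level of Ednrb ran differently in the other populations. The Thy+6C3- arrays were highest, with means of 8.32 ± 0.48 (SD, n = 3) without and 8.01 ± 0.31 with CD105. Thy-6C3-CD105- followed at 6.82 ± 0.22. The 6C3+ arrays averaged 5.04 ± 0.07 without and 5.02 ± 0.11 with CD105, and Thy-6C3-CD105+ came last at 4.80 ± 0.46. The first 2 overlapped, as did the last 3, so the Thy-6C3-CD105+ level could not be told from that of the 6C3+ populations. The step in Ednrb measured -0.31 among Thy+6C3- cells and -0.02 among 6C3+ cells. The tests of the difference between steps were not passed (-1.71, adjusted p = 0.0605, and -2.01, adjusted p = 0.665, limma).

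Eng is the gene of the sorted antigen and Ednrb the gene that passed, and the 250 bases upstream of an annotated start of each are printed here 5′ to 3′ from RefSeq (GRCm38.p6). Capitals mark the Ets motif AGGAAG, read on both strands, which was added to the search after the windows had been seen. Shorter forms of this motif were not searched or marked. The Ednrb window, on the minus strand, lies upstream of a start inside the annotated span of the gene.
Eng, chr2:32646345-32646594, plus strand: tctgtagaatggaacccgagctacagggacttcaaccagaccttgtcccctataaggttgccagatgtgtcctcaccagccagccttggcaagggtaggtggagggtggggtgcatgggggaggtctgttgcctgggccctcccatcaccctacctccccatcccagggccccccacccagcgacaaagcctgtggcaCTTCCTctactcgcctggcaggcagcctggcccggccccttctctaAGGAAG
Ednrb, chr14:103843702-103843951, minus strand: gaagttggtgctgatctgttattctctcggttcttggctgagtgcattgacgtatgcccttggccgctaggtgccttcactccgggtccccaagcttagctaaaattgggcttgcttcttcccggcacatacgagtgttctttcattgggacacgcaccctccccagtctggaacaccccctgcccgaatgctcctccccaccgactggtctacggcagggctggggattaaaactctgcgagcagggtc
Neither window holds the BMP-type Smad box GGCGCC, the AP-1 motif TGAGTCA, the Runx motif TGTGGT or the hypoxia response core ACGTG, each searched on both strands, and no motif contains another. Over all 32851 RefSeq windows, which run slightly past the start, these were found in 11.9%, 5.2%, 16.8% and 19.6%, and AGGAAG in 35.4%. Of the 24 genes with the largest differences described next, 16 had a window and 24 windows in all, of which 29.2% held the Smad box, 12.5% AP-1, 8.33% Runx, 16.7% the hypoxia core and 25% AGGAAG. Prss23 alone had 7 of these windows, and its windows with AP-1 overlap each other, so the shares are of windows and not of genes. The windows with the Smad box, a motif of G and C only, held 67.7% to 82.7% G and C. These are matches of letters.

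Genes of the Schwann cell lineage, whose cells wrap peripheral nerves, were mixed in the step. Mbp encodes myelin basic protein. On the probe set with the largest difference it read 6.71, 6.43 and 7.84 in CD105- and 3.66, 4.59 and 4.45 in CD105+ cells, and this probe set fell by 2.76 (SE 0.38, adjusted p = 0.0205 over all probe sets, limma). Of the 8 Mbp probe sets 5 were lower without overlap and 0 higher. The remaining 3 overlapped, and the one with the highest mean, which stands for Mbp among the genes, was among these, with a difference of 0.43. When the probe sets of a gene were averaged, Mbp passed in limma together with Eng.

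Erbb3, the neuregulin receptor that Schwann cells need, read 6.25, 6.05 and 6.20 against 5.25, 5.76 and 5.21. The groups did not overlap and the difference was -0.76 (SE 0.23), which did not pass. The second Erbb3 probe set overlapped. Other markers of these cells did not follow. Sox10, the transcription factor of neural crest glia, overlapped on all 3 probe sets, S100b on 2 and the neurotrophin receptor gene Ngfr on 3. Pmp22, Tubb3 and Gap43 overlapped as well, with differences of 0.12, 0.34 and 0.0002. Over the 8 measured members of the Schwann and neural list the median difference was 0.06, with 5 higher and 3 lower. The level averaged 7.21 to 7.37 on the CD105- and 7.02 to 7.48 on the CD105+ arrays. Without overlap 1 of 8 was lower, where 2.61% of all genes were. In Thy+6C3- cells, where Ednrb did not differ by the test, the same Mbp probe set read 7.90 ± 0.28 (SD, n = 3) without and 5.76 ± 0.32 with CD105. The part of glial cells in the Ednrb difference was not tested.

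**Figure D3:**
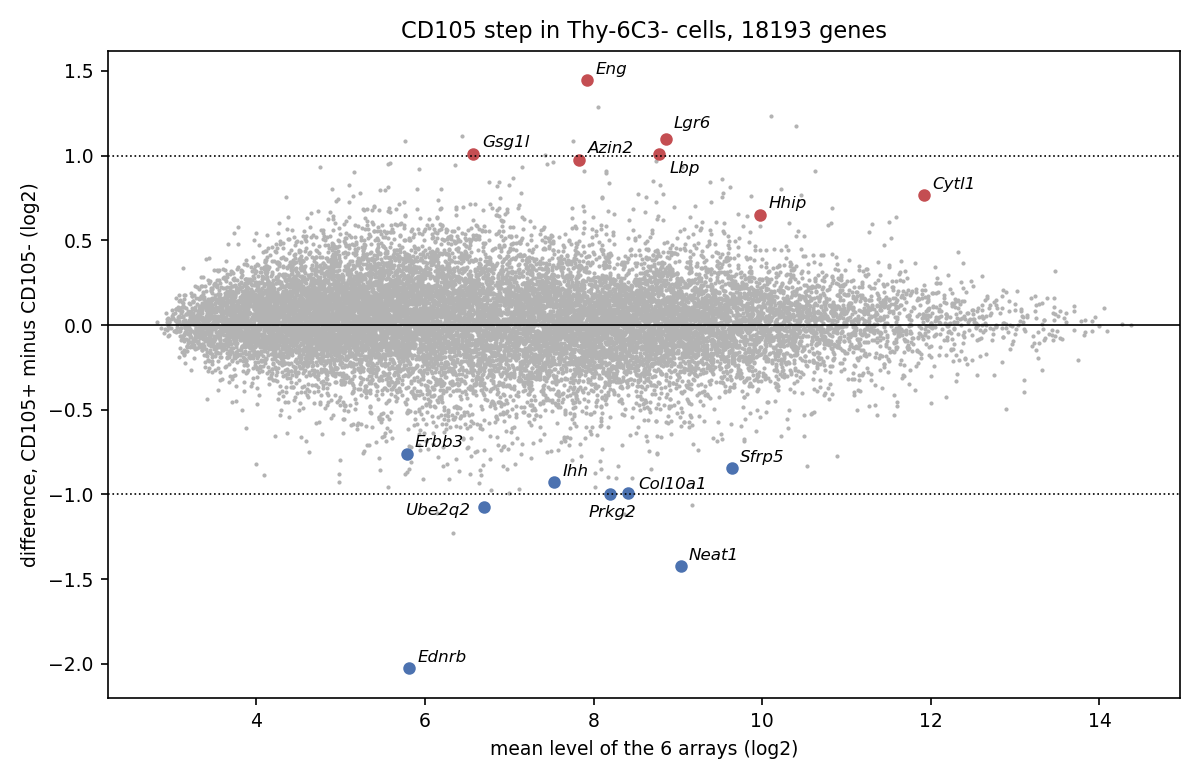
Difference between CD105+ and CD105- cells (log2) of 18193 genes against the mean level of the 6 arrays (log2); each grey point is a gene, coloured points are named genes, and dotted lines mark a 2-fold change. Ednrb at -2.03 lies apart from all other genes, and Eng at 1.45 has the highest difference.

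Few genes differed by 2-fold. The mean was higher by 1 or more in 11 genes (0.0605%) and lower in 7 (0.0385%). The arrays of both groups did not overlap in 676 genes that were higher (3.72%) and 475 that were lower (2.61%) in CD105+ cells, together 6.33%. Both conditions held in 7 genes (0.0385%), which were Eng, Lgr6, Gsg1l, Lbp, Neat1, Ube2q2 and Ednrb. The genes named below are the 12 largest differences in each direction among genes without overlap with the higher of both means over the median gene (6.76). All but Ednrb had an adjusted p over 0.05 in limma, so each is given by its values.

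Among the higher genes several encode receptors and secreted proteins. Lgr6, a receptor for the R-spondins that strengthen Wnt signalling, read 8.63, 8.65 and 7.63 in CD105- and 9.22, 9.19 and 9.80 in CD105+ cells (difference 1.10, SE 0.40). CD105- replicate 3 was the low array, and without both arrays numbered 3 the Lgr6 difference was 0.57. The second Lgr6 probe set overlapped, with a difference of 0.29. Lbp, the lipopolysaccharide binding protein, read 8.63, 8.24 and 7.96 against 9.37, 9.08 and 9.40 (1.01, SE 0.34). Its second probe set overlapped.

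Cytl1, a cytokine-like protein made by chondrocytes, read 11.32, 11.37 and 11.91 in CD105- and 12.48, 12.18 and 12.24 in CD105+ cells (0.77, SE 0.21). Of the 12, Cytl1 was the only gene called among Thy+6C3- cells, where it rose with CD105 by 1.13 (adjusted p = 0.0096, limma), and it was 0.61 higher in CD105+ cells of the 6C3+ populations. Those 3 steps share no arrays.

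Azin2, an antizyme inhibitor of the polyamine pathway, had tight groups, at 7.31, 7.47 and 7.25 against 8.22, 8.45 and 8.29 (0.98, SE 0.22). Its other 2 probe sets overlapped, with differences of 0.07 and -0.08. Stc1, the secreted stanniocalcin, read 8.17, 7.94 and 7.18 against 8.63, 8.34 and 8.83 (0.84). Nrn1, or neuritin, read 8.72, 8.73 and 7.69 against 9.18, 9.30 and 9.13 (0.83). In both genes CD105- replicate 3 was the low array, and without it the difference was 0.55 in Stc1 and 0.48 in Nrn1.

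Lefty1, an antagonist of Nodal, read 6.60, 6.80 and 5.95 against 7.02, 7.07 and 7.79 (0.84), with the extremes on the arrays numbered 3, and the difference was 0.34 without both. Chit1, a chitinase, was 0.84 higher, with 7.86 on CD105+ replicate 3 and a difference of 0.50 without that array. Tesc, or tescalcin, was 0.93 and Cldn34c1 0.96 higher, and both had their lowest value on CD105- replicate 3, without which they were 0.48 and 0.64. Gsg1l, an auxiliary subunit of AMPA receptors, was 1.01 higher and at least 0.84 with any 1 array left out.

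The lower genes include those of the growth plate. Col10a1, the collagen of hypertrophic cartilage, read 8.63, 9.0 and 9.10 in CD105- and 8.29, 8.06 and 7.40 in CD105+ cells (-0.99, SE 0.27). Ihh, the hedgehog ligand of prehypertrophic chondrocytes, read 7.94, 8.17 and 7.88 against 7.32, 7.20 and 6.68 (-0.93, SE 0.23). Both had been noted in earlier results on these arrays. Without both arrays numbered 3 the difference was -0.64 in Col10a1 and -0.79 in Ihh. In Thy+6C3- cells the CD105 step was -0.70 in Col10a1 and -0.48 in Ihh, and in 6C3+ cells it was -0.43 and 0.20; none of these passed.

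Prkg2 encodes the cGMP-dependent kinase that growth plate chondrocytes need for hypertrophy. It read 8.58, 9.32 and 8.18 in CD105- and 7.76, 8.02 and 7.30 in CD105+ cells (-1.0, SE 0.28). All 3 of its probe sets were lower, with differences of -1.12, -0.97 and -1.0, and 2 of them without overlap. In the other CD105 steps Prkg2 was 0.42 and 0.26 higher, not passed, from means of 4.92 to 5.57 in those 4 populations, below every array of the Thy-6C3- step. The same held for Col10a1, with means of 5.26 to 5.98 there, and Ihh, with 4.94 to 5.42.

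Neat1, a nuclear long non-coding RNA, had the second largest difference among the lower genes, and it rested on 1 array. It read 8.67, 8.83 and 11.73 in CD105- and 8.10, 8.41 and 8.44 in CD105+ cells (-1.42, SE 0.53). Without CD105- replicate 3 the Neat1 difference was -0.43. The 12 arrays of the other populations read at most 7.40, and the other 5 arrays of the step 8.10 to 8.83. The second Neat1 probe set overlapped, with a difference of 0.15.

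Of the remaining lower genes, Ube2q2, a ubiquitin conjugating enzyme, read 7.21, 7.28 and 7.23 against 6.44, 6.53 and 5.53 (-1.07, SE 0.27). Klhl2, a substrate adaptor of a ubiquitin ligase, was -0.98, Scube2, a secreted carrier of hedgehog ligands, -0.97, Prss23, a serine protease, -0.96, Tubgcp3, of the gamma-tubulin complex, -0.93, Lcp1, an actin bundling protein of blood cells, -0.88 and Flvcr2, a membrane transporter, -0.87. In Ube2q2, Klhl2, Scube2, Prss23, Tubgcp3 and Flvcr2 the lowest array was CD105+ replicate 3. Without it Klhl2 was -0.56 and Prss23 -0.56, and without both arrays numbered 3 Tubgcp3 was -0.51 and Flvcr2 -0.51. Scube2 also had a high CD105- array, replicate 3 at 8.65, and was -0.44 without that array and -0.18 without both. The Prss23 difference was 0.05 without probe sets that match several transcripts.

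**Figure D4:**
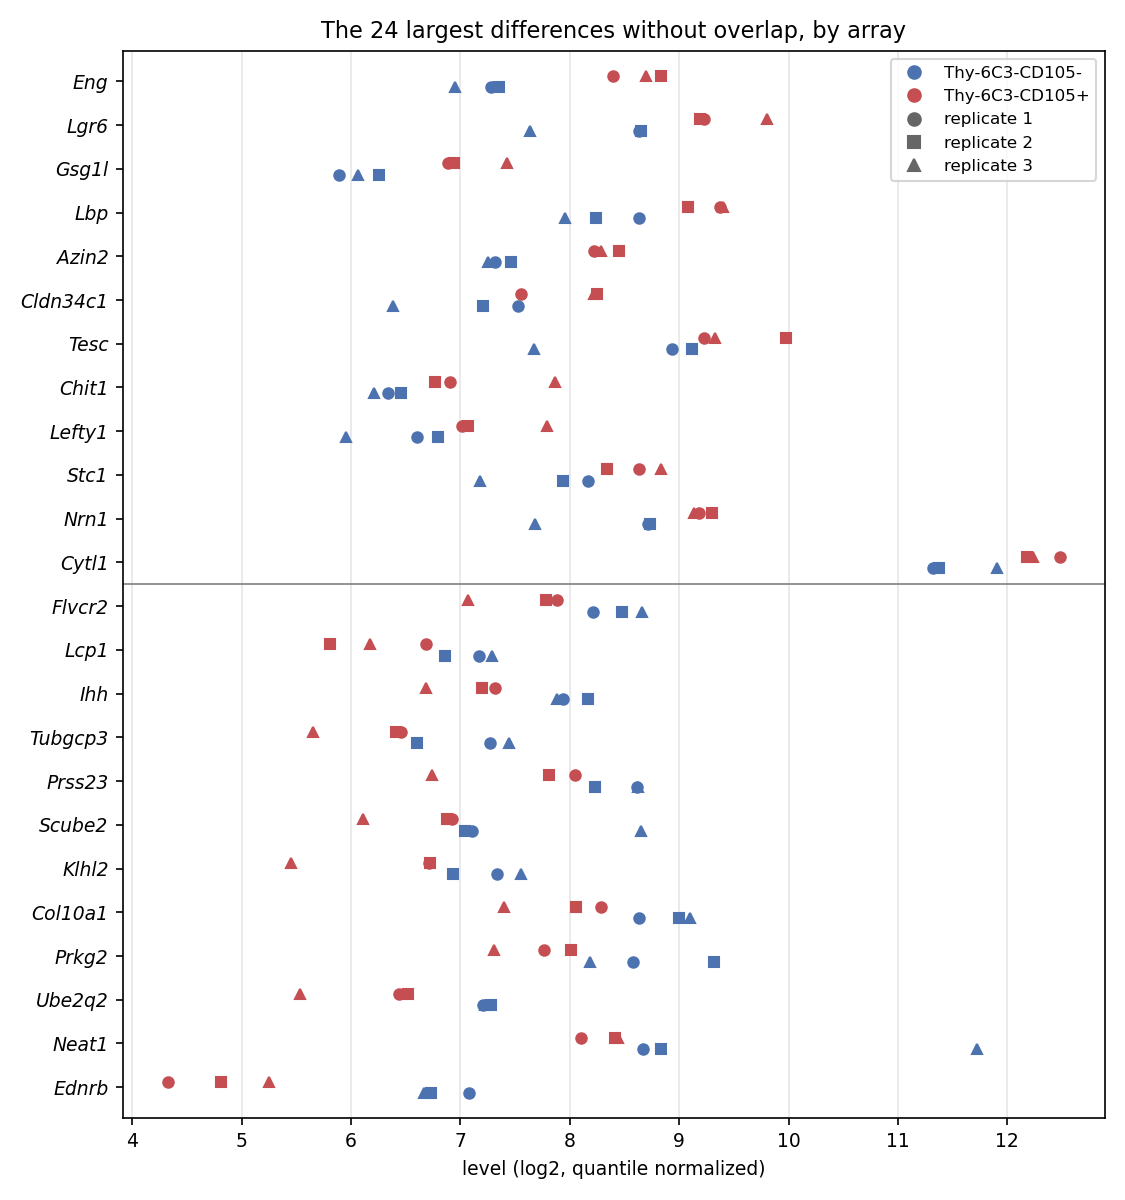
Levels (log2, quantile normalized) of the 24 genes with the largest differences without overlap, ordered by difference; each symbol is 1 array, blue for CD105-, red for CD105+, with the shape giving the replicate. In Ednrb the gap between the groups is wide, Neat1 has a single CD105- array at 11.73, and triangles, the arrays numbered 3, are often at the outer end of a row.

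Where genes had several probe sets, these gave part of the picture. Of the 24 genes 13 had more than 1, with 17 further probe sets. Of these 12 had the same direction, and 3 of the 12, of Eng, Ednrb and Prkg2, separated the groups without overlap.

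The growth plate genes were looked at as a list. Of the 8 measured members of the hypertrophic chondrocyte list 0 passed, all 8 were lower in CD105+ cells and 2 were lower without overlap, where 2.61% of all genes were. These 2 were Col10a1 and Ihh, which earlier results on these arrays had already named in this step. Their share is thus no independent result. The median of the 8 genes was -0.53, against 0.03 over all genes. Mmp13, the collagenase of late hypertrophic cells, read 7.66, 6.61 and 7.76 against 7.38, 6.29 and 5.86 (-0.83), with overlap. Panx3 was -0.57, Alpl, the alkaline phosphatase of mineralizing tissue, -0.50, Slc13a5 -0.46, Pth1r -0.24 and Mef2c -0.17.

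The mean of the 8 genes was 9.0, 8.88 and 8.62 on the CD105- and 8.53, 8.25 and 7.96 on the CD105+ arrays, without overlap. Without CD105- replicate 3 the median was -0.67, without CD105+ replicate 3 -0.41 and without both -0.52, with all 8 genes lower each time. In the other CD105 steps the median was -0.01 in Thy+6C3- and 0.12 in 6C3+ cells, and 0 of 8 passed in the difference between the steps.

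Of 23 chondrocyte genes 16 were lower in CD105+ cells, with a median of -0.06, and 18 were lower without both arrays numbered 3, with a median of -0.13. Of the 23, 1 was higher without overlap, Cytl1, and 1 lower, Col11a1 (-0.15), together 8.7% against 6.33% of all genes. The difference between the cartilage lists was not tested. Col2a1, the main collagen of cartilage, read 13.95, 14.11 and 14.27 against 14.11, 14.05 and 14.06, and Acan, the aggrecan gene, 12.88, 13.32 and 13.72 against 12.69, 13.17 and 12.86. The list averaged 12.12 to 12.20 on CD105- and 12.06 to 12.15 on CD105+ arrays.

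Of 13 osteoblast genes 0 separated the groups in either direction (median -0.18). Sp7, the transcription factor osterix, read 8.71, 9.18 and 7.99 against 8.09, 8.14 and 8.16. The mean of the list was lowest on CD105- replicate 3, at 8.58, where the other 5 arrays read 8.74 to 9.30. Of 18 stem and progenitor markers 1 was higher and 0 lower without overlap, 5.56% against 6.33% of all genes in either direction. This was Pdgfra, a receptor of mesenchymal progenitors, at 11.33, 11.37 and 11.27 against 11.61, 11.57 and 11.47 (0.23). Grem1, Cxcl12, Lepr and Gli1 overlapped.

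The signalling family of endoglin had shares without overlap of 5.56% to 6.67% in its 4 lists, near the 6.33% of all genes. Of 18 ligands of the BMP and TGF-beta family 0 passed and 1 was lower without overlap, of 15 receptors and co-receptors 1 was higher, which was Eng itself, of 17 antagonists and latent binders 1 was higher, and of 18 Smads and target genes 1 was lower. Gdf5, a ligand of joint formation, read 8.86, 8.85 and 8.77 against 8.50, 8.25 and 8.41 (-0.44, SE 0.26). Chrdl2, a secreted BMP antagonist of cartilage, read 6.19, 6.43 and 6.44 against 6.90, 7.12 and 7.07 (0.68, SE 0.31). Smad7, an inhibitory Smad, read 9.81, 10.12 and 10.32 against 9.74, 9.78 and 9.79 (-0.32), and -0.20 without CD105- replicate 3.

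Acvrl1, the type I receptor that endoglin assists in endothelium, overlapped, at 5.82 to 6.28 in CD105- and 5.80 to 6.52 in CD105+ cells. Tgfbr1, Tgfbr2, Bmpr1a and Bmpr2 differed by -0.28 to -0.03, all with overlap. Bmpr1b, a receptor of cartilage condensations, was -0.79 with overlap through CD105+ replicate 2. Among the targets Id1 was -0.52, Id2 0.11 and Id3 -0.24, all with overlap. The medians of the 4 lists lay between -0.11 and 0.01.

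The Hedgehog list held the largest share of genes without overlap among the lists, 53.8% against 6.33% over all genes, in both directions. Of its 13 members 4 were lower without overlap. These were the ligands Ihh and Dhh, the receptor and target gene Ptch1, at 12.08, 12.42 and 12.20 against 11.70, 11.92 and 11.68 (-0.46), and the transcription factor gene Gli2 (-0.18). The 3 that were higher encode proteins that bind the ligand at the cell surface, as does the receptor Ptch1 among the lower genes. Hhip, an inhibitor, read 9.57, 9.65 and 9.72 against 10.59, 10.35 and 9.96 (0.65, SE 0.27), and the co-receptor genes Cdon and Gas1 were 0.52 and 0.29 higher. None passed the test. Gli1, another target gene, overlapped, with 9.60 on CD105- replicate 3 and 7.18 to 8.29 on the other 5 arrays. The list was chosen with earlier results on Ihh known.

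Of 40 Wnt genes 3 were higher and 5 lower without overlap, together 20% against 6.33% of all genes, with a median of -0.06. Besides Lgr6, the co-receptor gene Lrp5 was higher, at 5.04, 5.14 and 4.97 against 5.42, 5.62 and 5.53 (0.47, SE 0.15). Sfrp5, a secreted antagonist, read 9.84, 9.85 and 10.50 against 8.99, 9.26 and 9.40 (-0.85, SE 0.32), and with CD105 it fell by 1.37 in Thy+6C3- cells (adjusted p = 0.0484, limma). The ligand gene Wnt5b was -0.56, and -0.37 without CD105+ replicate 3. Of 19 FGF, 18 Notch, 13 IGF and 17 vessel growth factor genes 0 separated the groups.

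Of 24 proliferation genes 22 were higher in CD105+ cells, where 56% of all genes were, and 4 of these without overlap (16.7% against 3.72% of all genes). The median was 0.31, but much of it came from 1 array. The mean of the list was 8.03 on CD105- replicate 3 and 8.54 to 8.72 on the other 5 arrays. Without that array the median was 0.12, against 0.01 over all genes, and 17 of 24 were higher. In the other CD105 steps the median was 0.16 in Thy+6C3- and 0.41 in 6C3+ cells, against -0.08 and -0.02 over all genes. None of the list passed in either step. Cdk1, the mitotic kinase, read 8.99, 8.97 and 8.43 against 9.11, 9.51 and 9.45 (0.56). Rrm2, a subunit of ribonucleotide reductase, read 10.28, 9.63 and 8.24 against 9.83, 9.98 and 10.30.

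In joint and tendon genes 3 of 20 were lower and 0 higher without overlap (15% against 6.33% of all genes). Kera, the keratocan gene of dense connective tissue, read 10.42, 10.12 and 9.85 against 9.60, 9.29 and 9.44 (-0.68, SE 0.26), and the tendon factor gene Mkx was -0.20. Of 23 limb patterning genes 1 was higher, Hoxd9 (0.39), and 2 were lower without overlap (13% against 6.33% of all genes). Shox2, a factor of proximal limb chondrocytes, read 9.27, 9.16 and 8.97 against 8.71, 8.53 and 7.87 (-0.76), and Hoxd10 (-0.80) rested on CD105- replicate 3 at 6.61 and was -0.19 without it.

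Over the 32 lists 487 genes were measured, 0 passed, 23 were higher and 23 lower without overlap, where 3.72% of all genes were higher and 2.61% lower. For other cell types the list means on the arrays were 5.53 to 5.74 in CD105- and 5.62 to 6.05 in CD105+ cells for 15 endothelial genes, 5.60 to 5.68 and 5.54 to 5.93 for 16 myeloid genes, 5.06 to 5.30 and 5.25 to 5.42 for 14 muscle genes and 5.75 to 5.82 and 5.81 to 5.84 for 13 keratinocyte genes. Cdh5, the endothelial cadherin, stayed at 4.83 to 5.37 and Pecam1 at 4.35 to 5.70 over the 6 arrays. Of the endothelial genes 11 of 15 were higher in CD105+ cells (median 0.20) and of the muscle genes 11 of 14 (median 0.12). Without both arrays numbered 3 these were 7 of 15 (median -0.0076) and 9 of 14 (median 0.042). CD105+ replicate 3 had the highest endothelial, myeloid, erythroid, muscle, keratinocyte and Schwann and neural means. Of the first 4 lists 2 members were lower without overlap, the myeloid genes Lcp1 and Mpeg1, and 1 higher, the muscle gene Tnnt1. Among keratinocyte genes Krt15 (0.78) and Krt1 (0.28) were higher and Perp (-0.72) lower without overlap. That was 23.1% of the list against 6.33% of all genes. The part of such cells in other differences was not tested.

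**Figure D5:**
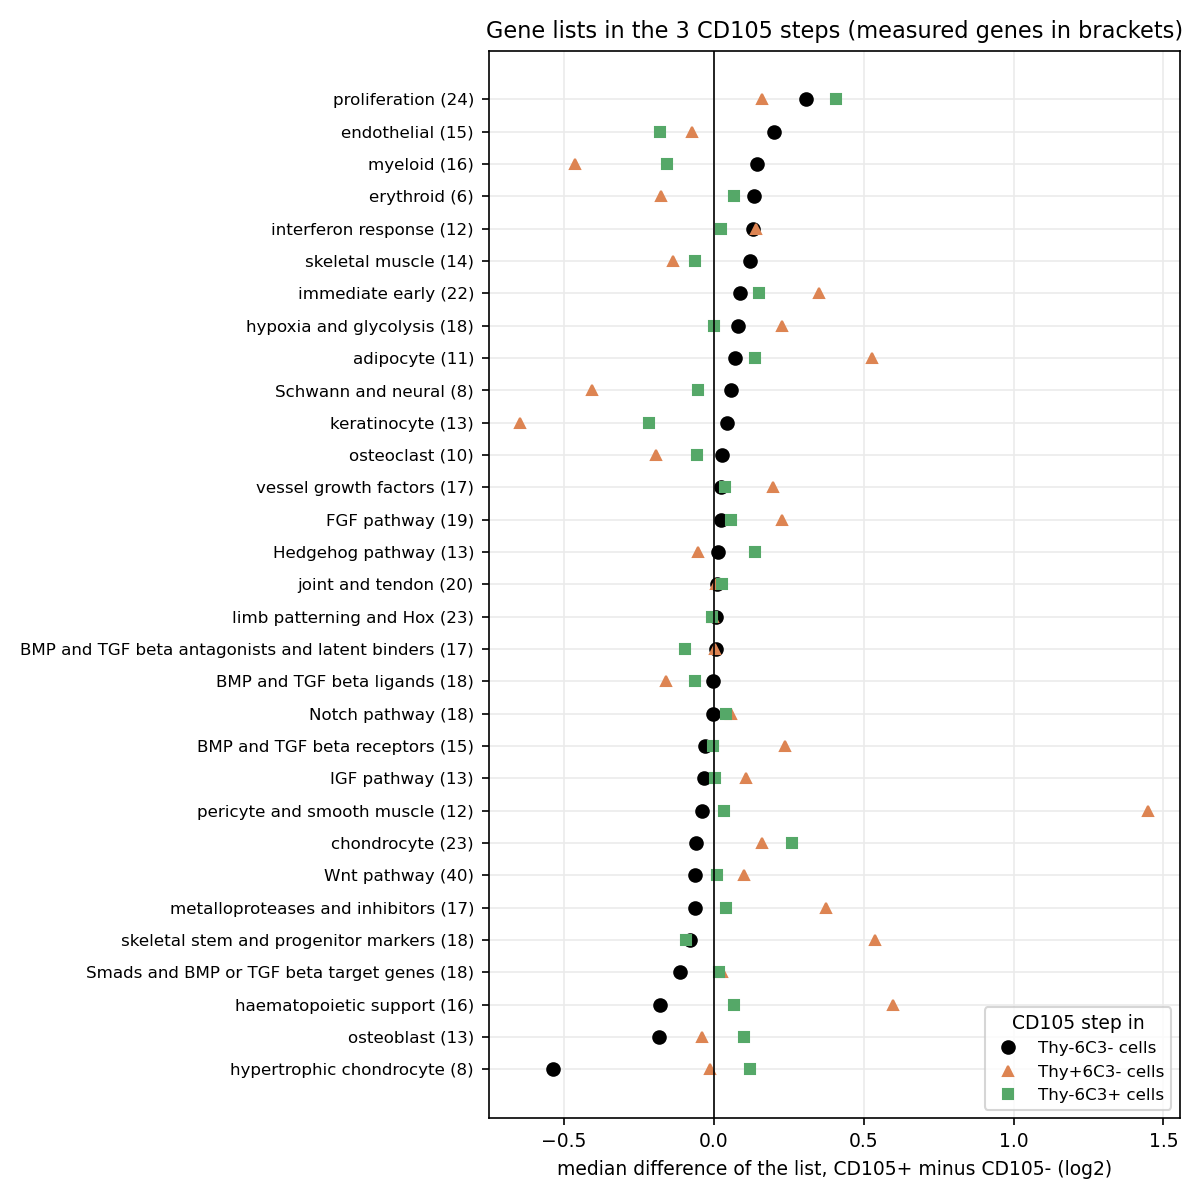
Median difference (log2) of gene lists between CD105+ and CD105- cells that are Thy-6C3- (black circles), Thy+6C3- (orange triangles) or 6C3+ (green squares), with the number of measured genes in brackets. In Thy-6C3- cells the hypertrophic chondrocyte list at -0.53 and the proliferation list at 0.31 are the ends of the order; the pericyte list is at -0.04 there and at 1.45 in Thy+6C3- cells.

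The step was then set against the same antigen step in the other populations, with which it shares no arrays. Among Thy+6C3- cells 185 genes passed (1.02%), 150 higher (0.824%) and 35 lower (0.192%) with CD105. For 6C3+ cells 0 passed in limma (498 at an unadjusted p under 0.05, 2.74%), and the titles of 2 of the arrays there, CD105- replicates 2 and 3, carry Thy+ against their population field. The test of the difference between the steps in Thy-6C3- and Thy+6C3- cells called 49 genes (0.269%), 44 lower (0.242%) and 5 higher (0.0275%) in the Thy-6C3- step. Against 6C3+ cells this test called 0 in limma (543 at an unadjusted p under 0.05, 2.98%).

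Of the 49 genes 48 were called in the Thy+6C3- step, which was positive in 44 and had a median size of 1.87. In the Thy-6C3- step 0 of them were called, the median size was 0.23 and the range -0.88 to 0.82. Of the 49, 9 had groups without overlap there, 3 higher and 6 lower. Of all genes 3.72% were higher and 2.61% lower without overlap in that step. Epas1, a hypoxia-inducible factor subunit, read 8.87, 8.78 and 9.23 without and 9.44, 9.44 and 9.42 with CD105, a difference of 0.47 against 3.79 in Thy+6C3- cells (difference of steps -3.31, SE 0.33, adjusted p = 0.000185, limma).

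In the difference of steps 0.269% of all genes were called. Of the 12 genes of pericytes and smooth muscle, cells that surround vessels, 6 were called, all lower in the Thy-6C3- step. They were Rgs5 (-3.18), Notch3 (-3.38), Myh11 (-2.63), Kcnj8 (-2.0), Mcam (-1.65) and Tagln (-1.62). Kcnj8, a potassium channel subunit of pericytes, was still higher without overlap in Thy-6C3-CD105+ cells, at 6.69, 6.76 and 6.74 against 6.26, 6.36 and 6.34. The list mean was 8.07 to 8.23 on CD105- and 8.07 to 8.42 on CD105+ arrays of the Thy-6C3- step.

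Shox2 was called as well, since it was 0.76 lower here and rose by 2.04 in Thy+6C3- cells (difference of steps -2.80, adjusted p = 0.0113, limma). The 5 genes called higher were the keratin genes Krt5, Krt14 and Krt15, the lysosomal gene Laptm5 of blood cells and Hspb9, the last named after its value was seen. Krt5 read 6.33 to 6.78 without and 6.33 to 6.76 with CD105, and in Thy+6C3- cells it fell by 2.41.

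The count of 49 was 12 without both arrays numbered 3 of the Thy-6C3- step, a setting added after seeing the data, 25 without CD105+ replicate 3 alone, 30 without CD105- replicate 1 and 31 without CD105- replicate 3. In Thy+6C3- cells it was 32 and 30 without CD105+ replicates 2 and 3, 104 without CD105- replicate 1 and 38 without CD105- replicate 3, the array that is high in Eng.

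The largest differences of the Thy-6C3- step were a mixed group in the other steps. Of the 12 higher genes 7 were also higher in CD105+ cells of the Thy+6C3- population and 9 in the 6C3+ population, where 40.9% and 46.3% of all genes were. Eng is the gene of the sorted antigen, and without it these were 6 and 8 of 11. Of the 12 lower genes 5 and 4 were lower in those populations, against 10755 and 9763 of all 18193 genes.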

How the data were processed

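The authors deposited log2 expression values of 45101 probe sets on 19 Affymetrix arrays. The sources used here do not give how scans became these values, and the log2 scale was read from their range, 2.55 to 14.6. Deposited array medians differed by more than 0.1, so arrays were quantile normalized. Of the probe sets 64 were controls, 34945 had 1 gene symbol in the platform table, 932 several and 9160 none; 18193 genes were each read from their probe set of highest mean in the 18 neonatal arrays, with no filter on low values. limma 3.58.1 in R 4.3.3 fitted 1 mean per population (12 residual degrees of freedom, prior 5.38, eBayes with trend); tests were two-sided, with Benjamini-Hochberg adjusted p under 0.05. Arrays carry no counts, and their number limits the precision. The adult array entered no test. The fit was tested on simulated data.

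Genes named were those passing, the 12 largest differences each way without overlap, the sorted antigens, up to 4 members without overlap of each list (all of the BMP and TGF-beta lists), up to 4 called genes each way of each difference between steps, and Col10a1 and Ihh. Other list members, Mbp and further glial probe sets were named after their values were seen. Members and lists were chosen with earlier results of these data known. Promoter windows and positions came from RefSeq. Alternatives changed the scaling, probe sets, genes, variance model, weights, blocks, grouping and arrays. Figures used matplotlib in Python.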

Additional observations from a re-analysis of the deposited data

Results flagged for a closer look

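The CD105 step of Thy-6C3- cells differed from that of Thy+6C3- cells by a test of the difference itself in 49 genes. Among those named by the rule the difference of steps was -3.60 in Vgll3, a transcription cofactor, -3.38 in Notch3, -3.35 in Apela, a peptide ligand of the apelin receptor, and -3.31 in Epas1. It was 3.23 in Krt15, 3.18 in Laptm5, 2.40 in Krt5 and 2.10 in Krt14. In Thy-6C3- cells Vgll3 differed by -0.27, Notch3 by -0.33, Apela by -0.52, Laptm5 by 0.82 and Krt14 by -0.07, all with overlap, and Krt15 by 0.78 without overlap, through values of 5.06, 5.40 and 6.39 against 4.74, 4.99 and 4.79. Without CD105+ replicate 3 the Krt15 difference was 0.39.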

How the results depend on the processing

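Ednrb was the single gene called with the deposited values, a common median, shared probe sets left out, no trend, a robust fit, a poly-A term, grouping by title and both arrays numbered 3 left out. The step's count was 2 with the mean of probe sets (Eng, Mbp) and with array weights (Ednrb, Eng), 3 with all probe sets, and 0 with genes above the median level (Ednrb left out), within the high or low poly-A arrays (Ednrb -2.29 and -1.88) and with the compared populations only, with or without a replicate block; leaving out 1 array gave 0 to 2. It was 0 without CD105- replicate 1 (Ednrb -1.90, adjusted p = 0.113, limma) or CD105+ replicate 2 (-2.04, adjusted p = 0.0697), and 2 without CD105+ replicate 1 (Ednrb, Rlbp1). Eng passed with the mean of probe sets (1.65, adjusted p = 0.00109, limma) and array weights (1.43, adjusted p = 0.0316). Against Thy+6C3- cells the count of 49 was 86 with a common median, 77 with the mean of probe sets, 12 with genes above the median level, 645 with array weights (420 higher, 225 lower), 0 within the high or low poly-A arrays, 12 without both arrays numbered 3 and 25 to 104 leaving out 1 array. Against 6C3+ cells it stayed 0 in all settings run. Signs turned in 5 differences between -0.37 and 0.29 and in Prss23 (-0.96): Tek to 0.01 (deposited values) and 0.19 (low poly-A arrays), Itgav to -0.023 (common median), -0.068 (array weights), -0.030 (poly-A term), -0.29 (high poly-A arrays) and -0.18 (both arrays numbered 3 left out), Thy1 to -0.028 (high poly-A arrays) and -0.19 (both arrays numbered 3 left out), Ptprc to -0.25 (low poly-A arrays), Enpep to 0.24 (both arrays numbered 3 left out), and Prss23 to 0.051 (shared probe sets left out). Leaving out 1 array gave -0.70 to 0.032 for Enpep, -0.13 to 0.31 for Itgav, -0.12 to 0.044 for Tek and -0.14 to 0.34 for Thy1. The causes were not tested.

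The deviations from the group means correlated at 0.29, 0.50 and -0.11 between the arrays numbered 1, 2 and 3. Each mean of 3 arrays includes the outlying array numbered 3, so these values cannot decide whether equal numbers are paired. Over all genes the pairs numbered 2 and 1 were the closest (0.995 and 0.993), and the pair numbered 3 was the most distant (0.965). By these correlations 4 of 6 arrays matched best with their own number. Both arrays numbered 1 were high in the poly-A control (6.47 and 8.04) and both numbered 2 low (4.77 and 4.91). Those numbered 3 were split (3.94 and 6.90), so equal number and equal poly-A level cannot be told apart. In the pairs numbered 1, 2 and 3 the Y-linked gene Kdm5d read 6.76 and 7.18, 5.95 and 6.14, and 7.17 and 5.09. Uty, also Y-linked, read 6.38 and 6.64, 5.96 and 5.11, and 6.42 and 5.16. With a replicate block the step's count was 1 and the tests against Thy+6C3- and 6C3+ cells called 69 and 0, and Eng stayed at 1.45. The compared populations with a block, both arrays numbered 3 left out and all probe sets were added after seeing the data. Within the poly-A sets an arm of the step holds 1 array, assumed to vary like the other groups. Leaving out 1 array gave 1.32 to 1.57 for Eng.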

Other observations

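The arrays numbered 1 and those numbered 2 were each so alike across the populations that the genes 2-fold apart in both can be listed. Of 45 and 30 such genes 6 were shared in the same direction. Ednrb differed by -2.75, -1.91 and -1.42 between the arrays numbered 1, 2 and 3, and Eng by 1.11, 1.48 and 1.75. The 4 others were less than 2-fold apart in the pair numbered 3. Runx3, a Runt family transcription factor of cartilage and blood cells, differed by -1.18, -1.04 and 0.14, Gpr1 by 1.04, 1.03 and -0.06, Slc47a1, a cation exporter, by 1.22, 1.12 and -0.28, and Htra4, a serine protease, by 1.38, 1.56 and 0.40. These genes were picked by their values, and equal numbers do not show a shared litter.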
